A study of Mus musculus with 30 samples.

Results

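The genes described here encode the proteins of the cytosolic ribosome in mouse embryonic stem cells (ESCs), together with the paralogs and related genes that share their symbols. Members were the array rows whose gene symbol starts with Rpl or Rps followed by a number, plus Rplp0, Rplp1, Rplp2 and Rpsa, without Rps6 kinases and without symbols marked as pseudogenes. Of 25697 probes on the array, 81 matched this symbol rule, and 74 of them, for 60 genes, were detected on at least 3 arrays at a detection p under 0.05. They stand among 15151 probes, for 11177 gene symbols, that passed the same filter. The 60 genes comprised 28 large-subunit proteins, 24 small-subunit proteins, 6 paralogs (Rpl3l, Rpl22l1, Rpl36al, Rpl39l, Rps27l and Rps4y2) and 2 genes that carry the prefix but encode no ribosomal protein of this set (Rpl7l1 and Rps19bp1). The 7 probes that did not pass were for Rplp2, Rpl17, Rps23, Rpl37 (2 probes), Rpsa and Rpl23, so 3 genes (Rplp2, Rpl17 and Rps23) have no value. Rpl5, Rpl11, Rpl26, Rplp0, Rpl10 and Rps27 were not analysed here.

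Each cytosolic ribosome is built from a large and a small subunit, and ribosomal proteins are made in matched amounts from many genes scattered over the genome. Their mRNAs are among the most abundant in dividing cells and typically begin with a terminal oligopyrimidine (TOP) tract, a run of C and U bases at the very 5′ end through which the TOR pathway controls their translation. In stem cells the output of ribosomes is tied to growth and proliferation, and a few paralogs are made mainly in other tissues, such as Rpl3l in muscle and Rpl39l in the testis.

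RNA came from 5 kinds of rescue clone of Ainv15 mouse ESCs, a line that expresses the doxycycline (Dox) responsive transactivator rtTA. Bub1b_R, Chek1_R, Ppm1g_R and Ppp2r1b_R each carry an shRNA against the named phosphoregulator and a Dox-inducible cDNA copy that the shRNA cannot target, and Ctrl_R is the control rescue clone. Bub1b is a spindle checkpoint protein, Chek1 a DNA damage checkpoint kinase, Ppm1g a protein phosphatase and Ppp2r1b a scaffold subunit of protein phosphatase 2A. Cells were kept with Dox at 1 ug/ml (+Dox, cDNA on) or without Dox for 5 days (-Dox, cDNA off), with 3 arrays in each of the 10 conditions. The paper describes 3 independent clones for each rescue gene, and the labels do not say which of them an array came from. A difference between clones is thus one between the lines used under these names. The labels describe rescue clones kept on mouse embryonic fibroblasts, whereas the methods describe RNA from cells grown without feeder cells. Nothing says that the 3 arrays of a condition came from separate cultures, so p-values measure only the spread between these arrays. By their sample numbers, the Ctrl_R arrays were registered earlier than those of the other clones. Whether they were grown and run alongside the others is not given. Such a difference cannot be told apart from clone in any comparison with Ctrl_R, that of Bub1b_R included.

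Levels are log2 normalized signal, and a probe's level says nothing about another probe's. Differences are log2 values with a standard error (SE) and an adjusted p from limma (Benjamini-Hochberg over 15151 probes), and a change passed at an adjusted p under 0.05. Between 11733 and 13685 probes were detected per array. The arrays fell into 2 sets by their lowest detected signal, which ran from 12.9 to 20.9 for Ctrl_R and Bub1b_R (12 arrays) and from 27.8 to 58.1 for the other clones (18 arrays). Withdrawal of Dox was compared within a set, but Chek1_R, Ppm1g_R or Ppp2r1b_R against Ctrl_R crosses the sets, and there set and clone cannot be told apart. The targeted genes checked the labels unevenly. Without Dox, Bub1b was lower in Bub1b_R than in Ctrl_R (-0.67, adjusted p = 1.05e-07). So were Chek1 in Chek1_R (-1.07, 3.06e-06) and Ppm1g in Ppm1g_R (-1.74, 5.66e-13), across the sets. Ppp2r1b in Ppp2r1b_R did not pass (-0.25, 0.158). The paper describes the Bub1b and Chek1 cDNA copies as lacking the shRNA target sequence. Whether the array probes read these copies was not tested. On withdrawal Ppm1g fell by 1.25 in Ppm1g_R (adjusted p = 4.5e-09), Bub1b differed by -0.14 in Bub1b_R (adjusted p = 0.217) and Ppp2r1b by 0.20 in Ppp2r1b_R (adjusted p = 0.365). Chek1 went against the label, 0.71 higher without Dox in the arrays labelled Chek1_R (adjusted p = 0.00115), although its probe was detected on 0 of the 3 +Dox arrays. Counts and ranges taken over several clones are therefore given with and without those arrays, a choice made after the data were seen. All 7 ESC markers on the array were detected in every condition. On withdrawal 4, 3, 4, 6 and 1 of them fell in Bub1b_R, Chek1_R, Ppm1g_R, Ppp2r1b_R and Ctrl_R, and 5, 5, 5, 5 and 2 of 5 primitive streak markers passed as higher. Mixl1 and Eomes were detected on none of the Ppp2r1b_R or Ctrl_R arrays, so a passed test of either there is not read as a rise. Of 10 fibroblast markers, Col1a2, Postn, Lum and S100a4 were detected in no condition, 3, 5, 5, 4 and 0 of the 6 tested rose on withdrawal and 1, 1, 1, 0 and 0 fell. The part of these cell states in the changes of the ribosomal protein genes was not tested.

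The start sites of the genes that the results turn on are shown for the pyrimidine run that marks TOP mRNAs. Each line gives 30 bases of the RefSeq promoter table (GRCm38.p6), 5′ to 3′ on the gene's strand, with 15 bases before the annotated start, and capitals mark the longest run of C or T in the window.
Rpl38 (chr11:114668565-114668594, plus strand): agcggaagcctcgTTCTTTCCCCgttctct
Rpl13a (chr7:45128731-45128760, minus strand): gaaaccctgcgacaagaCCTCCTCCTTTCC
Rpl22, first start (chr4:152325711-152325740, plus strand): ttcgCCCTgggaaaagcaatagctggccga
Rpl22, other start (chr4:152324421-152324450, plus strand): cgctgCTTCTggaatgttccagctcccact
Rpl22l1 (chr3:28805493-28805522, plus strand): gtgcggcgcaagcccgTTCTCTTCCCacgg
Rpl3l, first start (chr17:24727811-24727840, plus strand): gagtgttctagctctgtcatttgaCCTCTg
Rpl39l (chr16:10170213-10170242, plus strand): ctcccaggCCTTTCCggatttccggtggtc
Rps3a (chr3:86142654-86142683, minus strand): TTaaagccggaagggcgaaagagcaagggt
The windows of Rpl38, Rpl13a and Rpl22l1 hold runs of 10, 13 and 10 pyrimidines at or near the start, whereas the run in the window of the muscle paralog Rpl3l is 5 long and that of Rps3a is 2 long. The windows of the subunit gene Rpl22 hold runs of only 4 and 5. Within 20 bases either side of the start, the longest run of Rps3a is 5. RefSeq listed a promoter for 49 of the 60 member genes, with 58 starts. A run of at least 8 consecutive C or T bases lay within 20 bases either side of the start at 22 of 49 starts of the subunit genes (44.9%), at 2 of 7 starts of paralogs (28.6%) and at 16.5% of all 32851 promoters. The motif CCGGAAG, the core of an ETS factor site, lay on either strand of the 300-base promoter (250 before the start) at 40.8% of subunit-gene starts and 8.86% of all promoters. The motif and the run were searched apart, and overlaps were not removed. These matches describe letters in the window and are not sites.

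As a group, the ribosomal protein genes stayed near their +Dox level when Dox was withdrawn, and the members that passed the test were mostly lower by well under 1 on the log2 scale. In Bub1b_R 0 probes passed as higher and 12 as lower, where 11.6% and 12.8% of all tested probes passed. The counts were 0 and 9 in the arrays labelled Chek1_R, against 14.5% and 16.5% of all probes. Ppm1g_R had 3 higher and 11 lower (11.6% and 11.7% of all probes), and Ppp2r1b_R had 0 higher and 14 lower (12.4% and 12.9%). In Ctrl_R 1 probe was higher and 0 were lower (4.07% and 3.48%). The members' share that passed as lower was thus near that of all probes in the 4 phosphoregulator clones, while at most 3 of 74 passed as higher. At an unadjusted p under 0.05 there were 23, 13, 19, 25 and 9 probes in Bub1b_R, Chek1_R, Ppm1g_R, Ppp2r1b_R and Ctrl_R, where 34.7%, 39.1%, 33.9%, 36% and 21.7% of all probes were under it. Few changes were large: 1, 1, 0, 1 and 1 probes passed and also changed at least 1.5-fold, where 5.60%, 9.27%, 4.37%, 4.82% and 1.10% of all probes did.

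The median change of the 74 probes on withdrawal was -0.06 in Bub1b_R, -0.07 in Chek1_R, -0.02 in Ppm1g_R, -0.12 in Ppp2r1b_R and -0.02 in Ctrl_R, while the median over all probes lay between -0.02 and 0. Values below 0 were found for 57 of 74 probes in Bub1b_R, 58 in Chek1_R, 39 in Ppm1g_R, 57 in Ppp2r1b_R and 43 in Ctrl_R, which is 77%, 78.4%, 52.7%, 77% and 58.1% of the members against 51%, 52.5%, 51.4%, 51.6% and 50% of all probes. These small medians depend on how the arrays are put on 1 scale. Under median scaling in place of quantile normalization they were -0.14, -0.15, -0.26, -0.08 and -0.06, with all-probe medians of 0.04, 0.05, -0.06, 0.00 and 0.02.

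**Figure D1:**
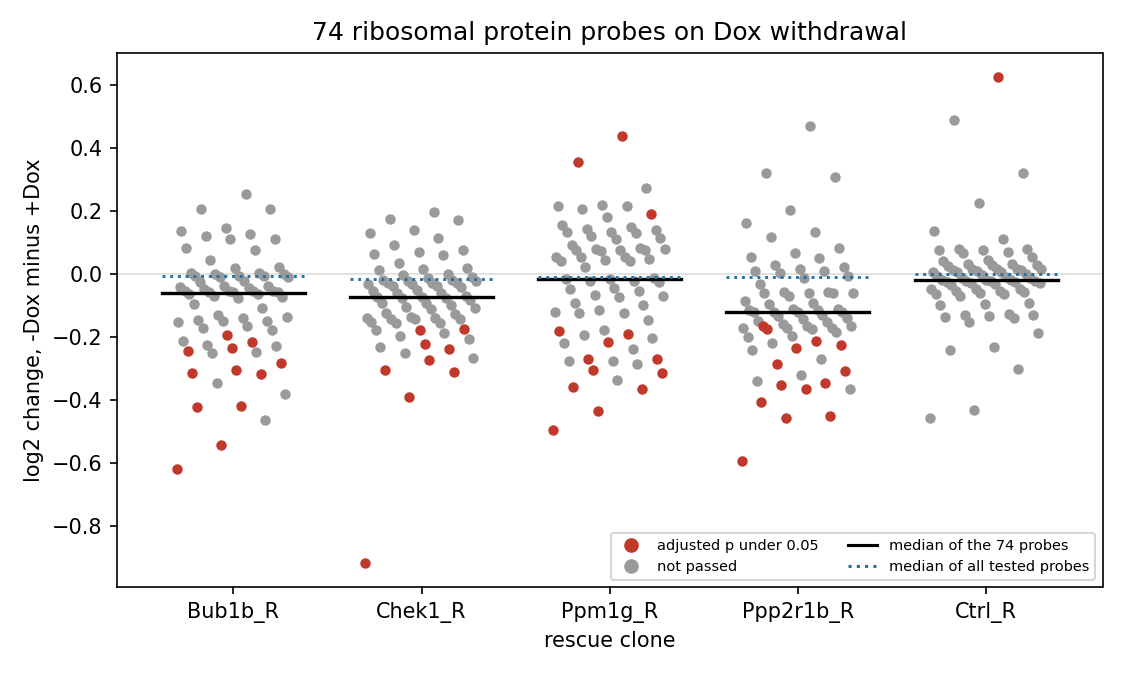
Log2 change on Dox withdrawal (y axis) of the 74 ribosomal protein probes in each of the 5 clones (x axis), with 1 point per probe, red for changes that passed the test and grey for the others. The black line is the members' median and the blue dotted line the median of all tested probes; nearly all points lie close to 0, and the lowest value, -0.92, belongs to Rpl3l in the arrays labelled Chek1_R.

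Most members had no passed change in any withdrawal, namely 44 of 74 probes, against 6770 of 15151 probes overall. Without the arrays labelled Chek1_R it was 46 members and 7921 of all probes. Mean levels were above 14 for 38 members, of only 113 such probes among all tested, and 36 of the 100 brightest probes were members. The median range of these 38 probes over the 10 condition means was 0.33, against 1.16 for the 16 members with a mean below 9 and 0.82 for all probes, and their median replicate SD was 0.10, against 0.19 for the dim members. Over the 8 conditions without Chek1_R the ranges were 0.31, 1.16 and 0.80. Under median scaling the 38 bright members had withdrawal medians of -0.14, -0.22, -0.29, -0.01 and -0.07 in Bub1b_R, Chek1_R, Ppm1g_R, Ppp2r1b_R and Ctrl_R. The 75 other probes above 14 had medians of -0.05, -0.12, -0.27, 0.02 and -0.03, so bright probes that are not members shifted too. These levels were chosen after the values were seen. Quantile normalization gives arrays the same value at the same rank, so bright members can differ only as far as their ranks do: Rpl9, a large-subunit protein, had the smallest range of any gene, 0.11, and the same value of 15.46 on several arrays. Over the 60 genes, each by its brightest probe, the range had a median of 0.50. The range exceeded 1 for 11 genes and was under 0.5 for 30, and without Chek1_R these counts were 8 and 32. The widest were Rpl3l (3.28), Rps3a (2.17), Rpl22l1 (2.15) and Rpl39l (1.79), so 3 of the 4 widest were paralogs, and these 4 had the same ranges without Chek1_R.

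**Figure D2:**
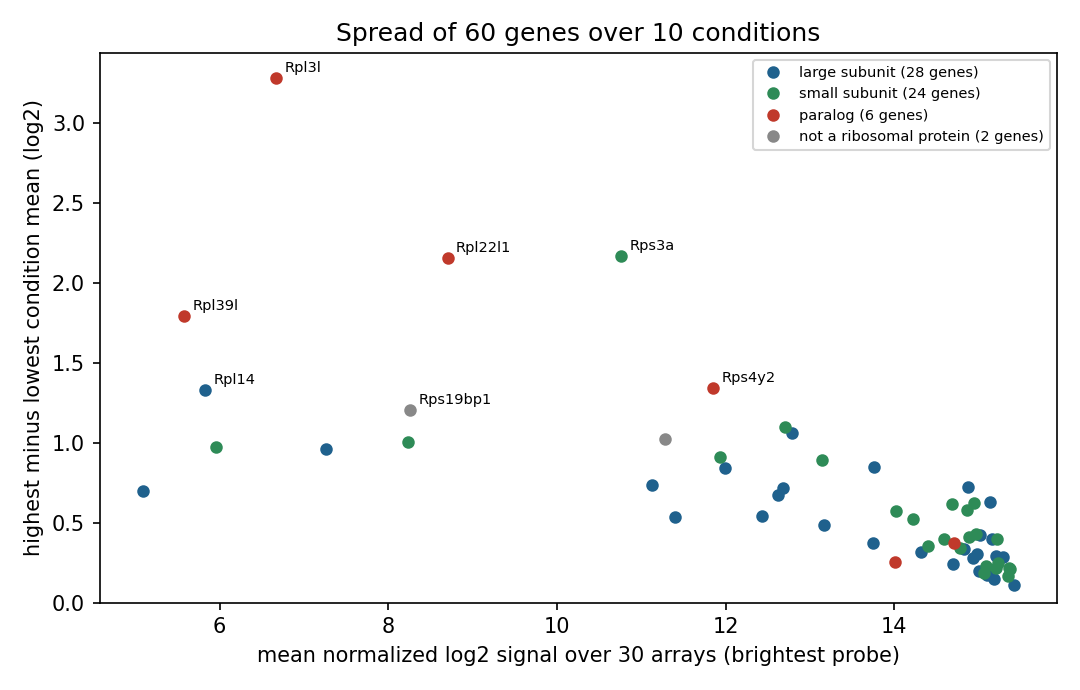
Range of each of the 60 genes over the 10 condition means (y axis, log2 units) against its mean level (x axis, log2 normalized signal), coloured by class, with the 7 widest genes labelled. Most subunit genes lie at the right, with levels above 14 and narrow ranges, and Rpl3l stands highest at 3.28.

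Among subunit proteins, Rpl38 and Rpl13a were lower without Dox in all 4 phosphoregulator clones. Together with Rpl3l they were the 3 of 74 probes (381 of 15151 overall) that passed as lower in all 4, and the same 3 passed in the other clones when the arrays labelled Chek1_R were left out (461 of all probes). Rpl29 passed in 3 of the 4 clones, and 27 probes passed as lower in at least 1 (4512 of all probes), or 25 without Chek1_R (3745). These genes are described because of their counts, which were seen first.

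Rpl38, a large-subunit protein known for its part in the translation of Hox mRNAs, was measured by 2 probes, and the changes were those of the dimmer probe. Its levels in Bub1b_R were 12.17, 12.19 and 12.18 with Dox and 11.85, 11.76 and 11.67 without. In the arrays labelled Chek1_R they were 11.90, 12.00 and 11.94 with Dox and 11.78, 11.69 and 11.66 without. In Ppm1g_R they were 11.93, 12.04 and 11.96 against 11.56, 11.48 and 11.59. The groups did not overlap in any of these clones. In Ppp2r1b_R the +Dox arrays gave 11.86, 11.95 and 11.76 and the -Dox arrays 11.40, 11.48 and 11.64, again apart. Ctrl_R, in contrast, overlapped, with 12.04, 12.02 and 12.06 with Dox and 12.09, 12.15 and 12.04 without. The changes were -0.42, -0.24, -0.43 and -0.35 in the 4 clones (SE 0.06, adjusted p = 2.79e-05, 0.00623, 2.19e-05 and 0.00032) and 0.05 in Ctrl_R (adjusted p = 0.687). The change also differed from that of Ctrl_R in each clone, by -0.47 in Bub1b_R (adjusted p = 0.00108), -0.29 in Chek1_R (0.0267), -0.49 in Ppm1g_R (0.000789) and -0.40 in Ppp2r1b_R (0.00743). Median scaling ended the call in Chek1_R (adjusted p = 0.421) and the differences from Ctrl_R in Bub1b_R (0.0609), Chek1_R (0.433) and Ppp2r1b_R (0.149), but not that in Ppm1g_R (0.00602). Both results in Ppp2r1b_R were also lost when only the arrays compared were fitted, and the difference in Chek1_R without any 1 of 5 of 12 arrays. The brighter probe, with a mean level of 15.16, passed in none of the withdrawals and changed by -0.01, -0.03, -0.27, 0.13 and -0.03, so the result belongs to 1 probe of the gene. Which transcript each probe reads was not analysed here.

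Rpl13a, a large-subunit protein that also takes part in the interferon-gated silencing of inflammatory mRNAs, fell by a similar amount in each clone, and its difference from the control was small. Levels in Bub1b_R were 12.80, 12.60 and 12.68 with Dox and 12.48, 12.31 and 12.38 without, a change of -0.30. For the arrays labelled Chek1_R 13.10, 13.06 and 12.98 stood against 12.88, 12.60 and 12.73, a change of -0.31. The changes in Ppm1g_R and Ppp2r1b_R were -0.31 and -0.29 (SE 0.10 throughout, adjusted p = 0.0259, 0.0178, 0.0227 and 0.0353 in the 4 clones), and the groups were apart in each of the 4. Ctrl_R moved the same way, from 13.02, 12.86 and 13.14 to 12.70, 12.81 and 12.82, also without overlap, but did not pass (-0.23, adjusted p = 0.166). The change minus that of Ctrl_R lay between -0.08 and -0.05 and passed in no clone. Leaving out a single array ended these calls for 4 of the 6 arrays in Bub1b_R, 2 in Chek1_R, 4 in Ppm1g_R and 3 in Ppp2r1b_R. The calls in Bub1b_R and Chek1_R were lost under median scaling (adjusted p = 0.101 and 0.0693), and those in Ppm1g_R and Ppp2r1b_R when only the arrays compared were fitted (0.0803 and 0.176).

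Rpl29, a large-subunit protein that also binds heparin, passed in 3 clones with its brighter probe. Levels in Bub1b_R were 12.45, 12.47 and 12.38 with Dox and 12.28, 12.19 and 12.11 without. The arrays labelled Chek1_R went from 13.33, 13.26 and 13.17 to 12.86, 13.07 and 12.92, and those of Ppm1g_R from 13.06, 12.94 and 12.99 to 12.75, 12.64 and 12.78. The -Dox arrays lay below the +Dox arrays in each of these clones, and the changes were -0.24, -0.30 and -0.27 (SE 0.07, adjusted p = 0.0147, 0.00198 and 0.00788). Under median scaling the calls in Bub1b_R and Chek1_R were lost (adjusted p = 0.228 and 0.0597). Values of -0.14 in Ppp2r1b_R (adjusted p = 0.17) and -0.06 in Ctrl_R (0.702) did not pass. No difference from the change in Ctrl_R passed for Rpl29, the widest being -0.25 in Chek1_R (adjusted p = 0.101).

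**Figure D3:**
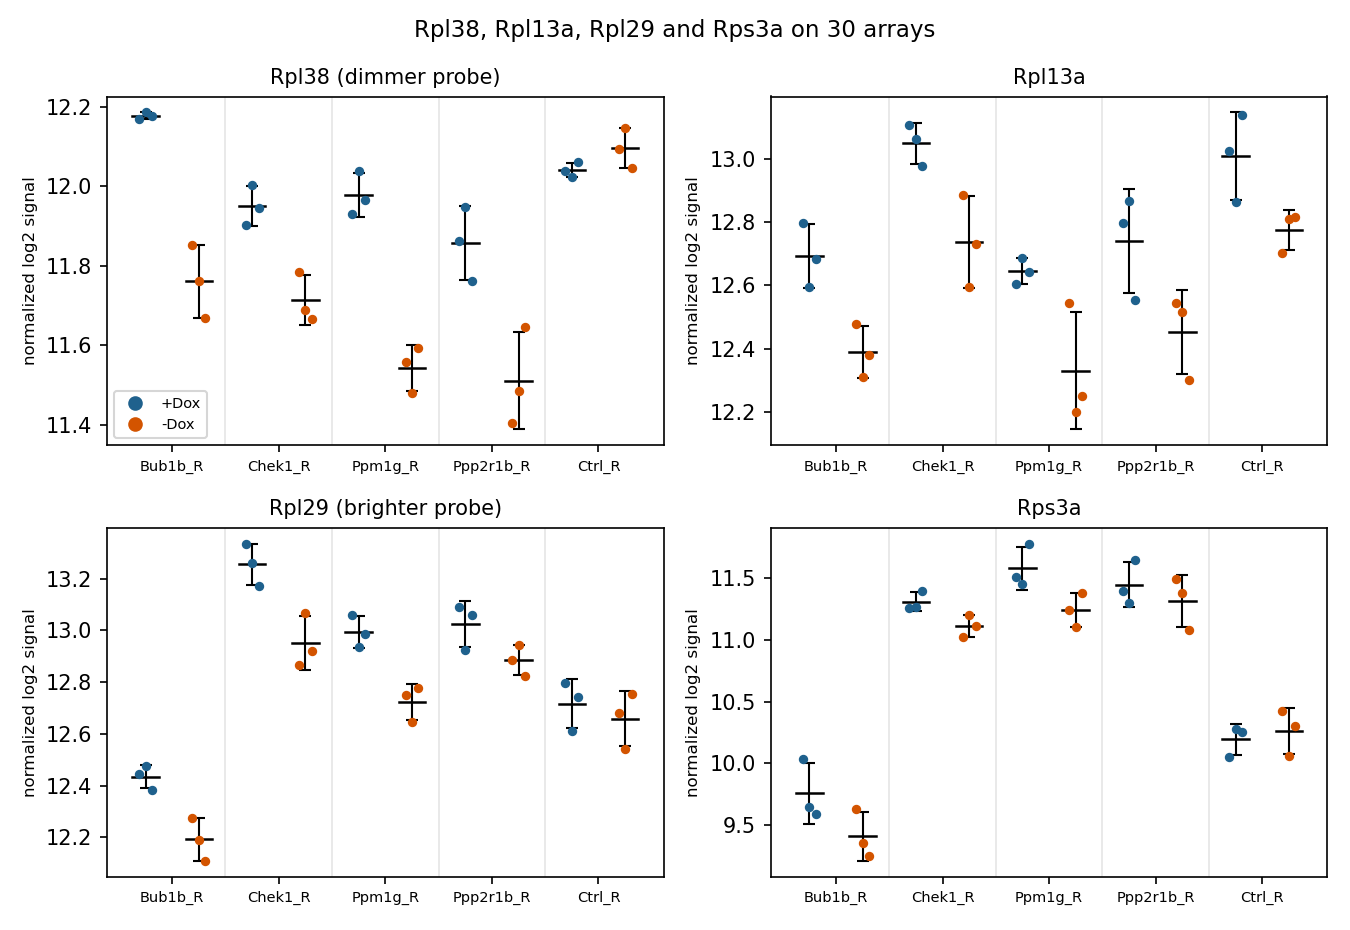
Log2 normalized signal on all 30 arrays of the dimmer Rpl38 probe, Rpl13a, the brighter Rpl29 probe and Rps3a, 1 panel each, by clone (x axis) with +Dox in blue and -Dox in orange. Points are arrays, bars across them the mean and error bars the SD of 3 arrays; Rpl38 is lower without Dox in the 4 phosphoregulator clones and not in Ctrl_R, while Rps3a differs mainly between clones.

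Several subunit genes changed in 1 or 2 clones. Rpl4, which lines the peptide exit tunnel, passed as lower in Bub1b_R (-0.28, adjusted p = 0.00167) and Ppp2r1b_R (-0.23, 0.00817), and so did Rpl7a (-0.22 and -0.21). Most withdrawal calls of members in Ppp2r1b_R were lost when only the arrays compared were fitted. Rps25, a small-subunit protein needed for initiation at several viral internal entry sites, went from 13.16, 13.11 and 13.01 to 12.49, 12.53 and 12.63 in Bub1b_R without overlap (-0.54, SE 0.19, adjusted p = 0.0345), and this call was lost when any 1 of those 6 arrays was left out. Rps15a rose in Ppm1g_R, from 7.47, 7.75 and 7.53 to 7.87, 7.91 and 8.04 (0.36, adjusted p = 0.00163). Rps27a, which is made as a fusion with ubiquitin, moved both ways: it rose by 0.19 in Ppm1g_R (adjusted p = 0.0238) and fell in Ppp2r1b_R from 11.76, 11.66 and 11.76 to 11.30, 11.40 and 11.43 (-0.35, SE 0.06, adjusted p = 0.000152). The rise was lost under median scaling (adjusted p = 0.737) and without any 1 of 4 of its 6 arrays. In Ppp2r1b_R its change differed from that of Ctrl_R by -0.43 (adjusted p = 0.00267). Rpl30, which controls splicing of its own transcript in yeast, fell there as well, from 10.95, 10.94 and 11.04 to 10.57, 10.74 and 10.71 (-0.31, adjusted p = 0.00915), and differed from the change in Ctrl_R by -0.42 (adjusted p = 0.0307). Median scaling (adjusted p = 0.119 for Rps27a and 0.154 for Rpl30) and fitting only the arrays compared ended both differences from Ctrl_R, and that of Rpl30 was lost without any 1 of 6 of 12 arrays too.

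Members known for roles in signalling or disease were read separately. Rps6, the substrate of the S6 kinases, passed only in Ppp2r1b_R, at -0.18 (adjusted p = 0.0333). Rps19, mutated in Diamond-Blackfan anaemia, had values between -0.07 and 0.05 with its brighter probe and passed in no withdrawal, but its dimmer probe passed as lower in Ppp2r1b_R (-0.45, adjusted p = 0.00603). Rpl23, a binding partner of Mdm2, gave values between -0.12 and 0.01 with its brightest probe, without passing, whereas its dimmest tested probe passed as lower in Chek1_R and Ppp2r1b_R (-0.22 in each, adjusted p = 0.0414 and 0.0487). The stalk protein Rplp1, the X-linked Rps4x and the laminin receptor precursor Rpsa passed in no withdrawal either. Rps27l, a paralog known as a p53 target, had values of 0.11, 0.07, 0.22, -0.07 and 0.08 in Bub1b_R, Chek1_R, Ppm1g_R, Ppp2r1b_R and Ctrl_R and passed in none of the 13 comparisons, and Rpl36al likewise passed in none.

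Rpl3l, the paralog of Rpl3 made mainly in heart and skeletal muscle, had the lowest value of all members on withdrawal. Levels in Bub1b_R were 6.95, 7.16 and 7.18 with Dox and 6.34, 6.63 and 6.48 without. In the arrays labelled Chek1_R they were 6.72, 6.55 and 6.77 against 5.56, 6.05 and 5.68, and in Ppm1g_R 6.62, 6.60 and 6.60 against 6.10, 6.01 and 6.22. The -Dox arrays were below the +Dox arrays in each. In Ppp2r1b_R 5.38, 6.10 and 6.01 stood against 5.22, 5.14 and 5.35, and the probe was detected on 0 of these 3 -Dox arrays, so that it was at least 1.16-fold lower. Ctrl_R was highest, at 8.71, 8.54 and 8.29 with Dox and 8.43, 8.45 and 8.37 without, and its groups overlapped. The changes were -0.62 in Bub1b_R, -0.92 in Chek1_R, and -0.49 in Ppm1g_R (SE 0.14, adjusted p = 0.00232, 2.02e-05 and 0.0139), and -0.10 in Ctrl_R (0.752). In Ppp2r1b_R the test passed (adjusted p = 0.00362), with the size known only as that bound, and the call was lost when only the arrays compared were fitted (0.107). That in Ppm1g_R was lost without background correction (0.052) and without its -Dox replicate 2 (0.0616). Only in the arrays labelled Chek1_R did the change differ from that of Ctrl_R past the test (-0.82, adjusted p = 0.00569). Bub1b_R and Ppm1g_R gave -0.52 and -0.40 (adjusted p = 0.102 and 0.229), and Ppp2r1b_R did not pass either (0.139).

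Rpl22 and Rpl22l1 are paralogs that can replace each other in the large subunit, and Rpl22 is known to repress Rpl22l1. Rpl22 fell most in Bub1b_R, from 11.88, 11.93 and 11.96 to 11.40, 11.56 and 11.55 (-0.42, SE 0.06, adjusted p = 1.81e-05). It fell by 0.18 in Ppm1g_R (adjusted p = 0.0399), a call lost without any 1 of 5 of its 6 arrays. Values elsewhere were -0.15 in Chek1_R, -0.06 in Ppp2r1b_R and -0.13 in Ctrl_R, and did not pass. Only in Bub1b_R did the change of Rpl22 differ from that in Ctrl_R past the test (-0.29, adjusted p = 0.0351), and this was lost under median scaling (0.348), when only the arrays compared were fitted and without any 1 of 7 of 12 arrays.

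Rpl22l1 rose on withdrawal in Ctrl_R, from 8.12, 8.13 and 8.15 to 8.84, 8.50 and 8.94 without overlap (0.62, SE 0.18, adjusted p = 0.0359), and this was the 1 member called there. The call was lost under median scaling and when any 1 of 5 of those 6 arrays was left out. Bub1b_R without Dox was the condition with the lowest mean of Rpl22 and also of Rpl22l1, which stood at 7.99, 7.95 and 7.46 with Dox and 7.65, 7.43 and 7.18 without in that clone (-0.38, adjusted p = 0.141). The remaining clones had levels between 8.69 and 10.03 and changes of -0.08, -0.24 and -0.22 that did not pass. Against the change in Ctrl_R, that of Rpl22l1 was lower by -1.0 in Bub1b_R (adjusted p = 0.0109), -0.86 in Ppm1g_R (0.0283) and -0.84 in Ppp2r1b_R (0.0439), and by -0.70 in Chek1_R without passing (0.0619), with an SE of 0.26. The difference in Ppp2r1b_R was lost under 6 of 11 alternatives, the replicate block and median scaling (adjusted p = 0.136) among them, and without any 1 of 8 of 12 arrays. That in Ppm1g_R was lost without any 1 of 7, and that in Bub1b_R under none of these. All of these differences share the Ctrl_R arrays, in which the gene rose.

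Rpl39l, a paralog of Rpl39 made mainly in the testis, was near the detection limit in most clones and highest in Ppm1g_R, at 6.61, 6.56 and 6.89 with Dox and 6.25, 7.03 and 6.48 without. The other clones lay between 4.72 and 6.08. None of its 5 withdrawals passed. In Bub1b_R its change was lower than that in Ctrl_R past the test (adjusted p = 0.0351), with array values of 5.36, 5.60 and 5.10 with Dox and 4.88, 5.00 and 4.79 without. The probe was detected on 1 of 3 of these +Dox and 0 of 3 -Dox arrays, and on 0 and 2 of the 3 in Ctrl_R, so the difference has no exact size, and it was lost under median scaling (0.0655) and without any 1 of 8 of 12 arrays. Rps4y2, which RefSeq now lists as Rps4l and as a transcribed pseudogene, passed as lower in Bub1b_R (-0.31, adjusted p = 0.0159) and Ppp2r1b_R (-0.40, 0.00249). The call in Ppp2r1b_R was lost when only the arrays compared were fitted (adjusted p = 0.0666).

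**Figure D4:**
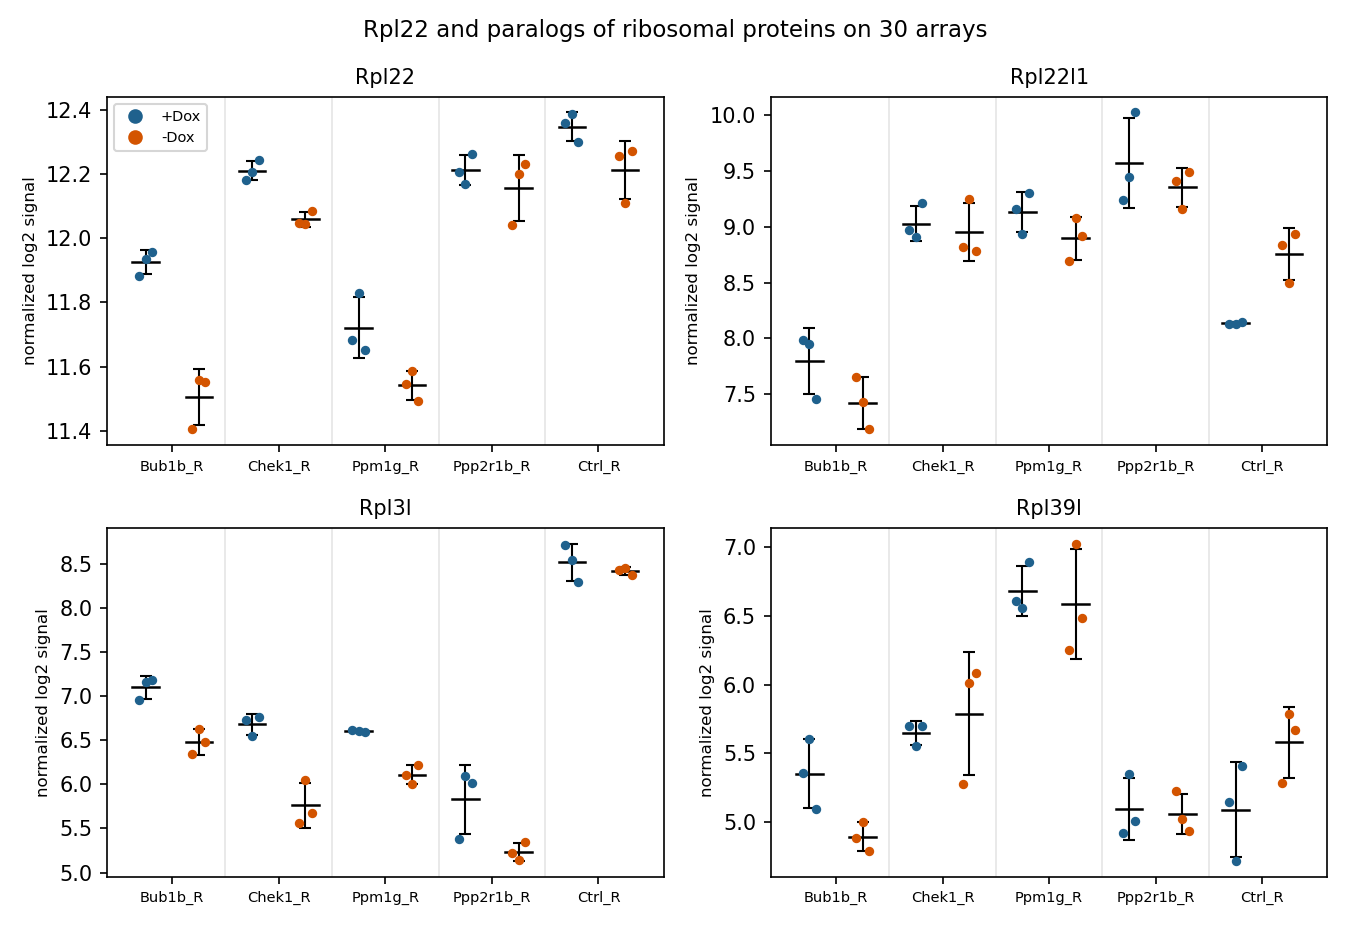
Log2 normalized signal of Rpl22, Rpl22l1, Rpl3l and Rpl39l on all 30 arrays, 1 panel each, by clone (x axis) with +Dox in blue and -Dox in orange; points are arrays, bars the mean and error bars the SD of 3 arrays. Rpl3l is highest in Ctrl_R and lower without Dox in the other clones, and Rpl22l1 rises without Dox only in Ctrl_R.

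Of the 2 members that are not ribosomal proteins, Rpl7l1 fell in Ppp2r1b_R with both probes (-0.36 and -0.46, adjusted p = 0.00215 and 0.00348). The call of its brighter probe was lost when only the arrays compared were fitted (adjusted p = 0.0721). Rps19bp1, a regulator of the deacetylase Sirt1, passed in no withdrawal.

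Taking the change in Ctrl_R from the change in each clone left few members. In Bub1b_R 0 were higher and 4 lower, where 12.2% of all probes passed in either direction. The counts were 0 and 2 for Chek1_R (18.3% of all probes), 1 and 2 for Ppm1g_R (12.0%) and 1 and 5 for Ppp2r1b_R (8.28%). Every probe that passed had a mean level under 12. Members were below the overall share in Bub1b_R, Chek1_R and Ppm1g_R and near it in Ppp2r1b_R. The medians were -0.06, -0.04, 0.03 and -0.10, and that of Ppm1g_R became -0.19 under median scaling, where all probes had -0.09. The 4 comparisons share the Ctrl_R arrays.

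More members passed against Ctrl_R than on withdrawal, as did more of all probes. Without Dox, Bub1b_R had 5 members higher and 24 lower than Ctrl_R, where 25.9% and 27.0% of all probes passed. The arrays labelled Chek1_R had 10 higher and 15 lower (28.9% and 31.7% of all probes), Ppm1g_R 12 and 26 (30.8% and 34.0%) and Ppp2r1b_R 15 and 25 (29.5% and 35.9%). Changes of at least 1.5-fold were passed by 7, 7, 13 and 15 members, where 22.6%, 28.8%, 33.5% and 33.7% of all probes did. The split depended on the scaling: under median scaling it was 7 higher and 13 lower in Bub1b_R, 7 and 26 in Chek1_R, 5 and 55 in Ppm1g_R and 5 and 65 in Ppp2r1b_R. The shares of all probes that passed under median scaling are not given here, so these counts are not read as a trait of the members. The members' medians were then -0.10, -0.19, -0.62 and -0.75, against -0.09, -0.03, -0.09 and -0.09 with quantile normalization, and the medians of all probes ran from -0.18 (Ppp2r1b_R) to 0.10 (Bub1b_R). Bright probes that are not members shifted too under median scaling: for levels above 14, the 38 members had a median of -0.80 in Ppm1g_R and -0.81 in Ppp2r1b_R, and the 75 other probes -0.61 and -0.80. These 4 comparisons share the Ctrl_R arrays as well.

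**Figure D5:**
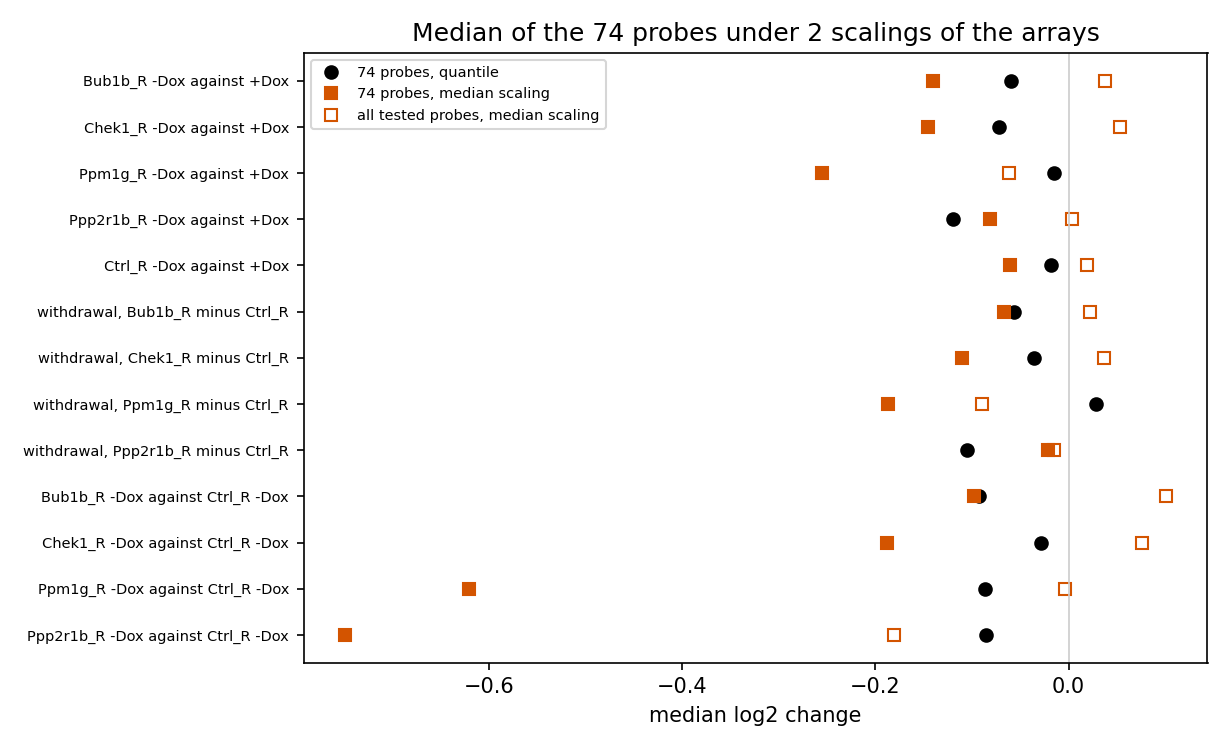
Median log2 difference of the 74 members in the 13 comparisons (1 row each, x axis in log2 units) after quantile normalization and after median scaling, with the median of all tested probes under median scaling. On withdrawal the settings differ most in Ppm1g_R (-0.02 and -0.26), and they part furthest for Ppm1g_R and Ppp2r1b_R against Ctrl_R, where median scaling gives -0.62 and -0.75.

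Rpl3l was again the widest of these differences. It was lower than in Ctrl_R by -1.93 in Bub1b_R (adjusted p = 4.27e-11), within 1 set of arrays, and by -2.65 in Chek1_R and -2.31 in Ppm1g_R (1.23e-13 and 1.55e-12). In Ppp2r1b_R, where it was not above background, it was at least 6.97-fold lower. With Dox the condition means were 7.10, 6.68, 6.60 and 5.83 in the 4 clones and 8.51 in Ctrl_R, so Ctrl_R stood above the others with Dox too. Rpl22 was lower than in Ctrl_R in Bub1b_R (-0.71, adjusted p = 9.85e-10) and Ppm1g_R (-0.67, 1.91e-09), and by less in Chek1_R (-0.15, 0.0377). Rpl22l1 was lower in Bub1b_R by -1.34 (1.1e-06) and higher in Ppp2r1b_R by 0.60 (0.00617). Rpl39l was higher in Ppm1g_R by 1.01 (0.00018), a difference that crosses the sets, with the probe detected on 2 of 3 Ctrl_R arrays, and that was lost without background correction (0.153).

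Rps3a, a small-subunit protein near the mRNA channel, divided the clones. Its levels lay between 11.02 and 11.78 in Ppm1g_R, Ppp2r1b_R and the arrays labelled Chek1_R, whereas Ctrl_R read 10.05, 10.28 and 10.26 with Dox and 10.42, 10.06 and 10.30 without, and Bub1b_R 10.03, 9.64 and 9.59 with Dox and 9.63, 9.35 and 9.25 without. No value of the first 3 clones fell within the range of the others. Without Dox the differences from Ctrl_R were 0.85, 0.98 and 1.05 (SE 0.13, adjusted p = 7.84e-06, 8.54e-07 and 2.75e-07) and, in Bub1b_R, -0.85 (8.49e-06). The first 3 coincide with the division of the arrays by signal level, and the difference in Bub1b_R does not. Rpl14 followed the same division: its probe was not above background on the Ctrl_R arrays and was at least 1.91-, 1.77- and 1.69-fold higher in Chek1_R, Ppm1g_R and Ppp2r1b_R (adjusted p = 5.75e-07, 2.1e-06 and 5.34e-06). The dimmer Rpl27a probe was not above background on the Ctrl_R -Dox arrays. Against these it was at least 1.62-, 1.68- and 1.71-fold higher in the same clones without Dox. On the Ctrl_R +Dox arrays its signals of 15.9, 24.4 and 20.5 exceeded the lowest detected signals of 15.2, 20.2 and 16.2. In Ppp2r1b_R with Dox, replicates 1 and 2 (31.3 and 22.8) lay below theirs (41.6 and 33.6), so this probe did not follow the division throughout.

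Probes of 1 gene often disagreed. For 13 genes with several probes, 14 further probes were set against the brightest. Their correlation over the 10 condition means ran from -0.74 (Rpl29) to 0.95 (Rpl21) with a median of 0.18, and was below 0 for 4. These are descriptions over conditions that share arrays. For Rpl29 the probes passed in opposite directions in Ppm1g_R, -0.27 with the brighter and 0.44 with the dimmer probe (adjusted p = 0.00788 and 0.0392). Calls of single probes, such as that of Rpl38, are thus calls of the probe.

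Genes that work with the ribosomal proteins were read from fixed lists. Beside them, 11.6%, 14.5%, 11.6%, 12.4% and 4.07% of all probes passed as higher on withdrawal in Bub1b_R, Chek1_R, Ppm1g_R, Ppp2r1b_R and Ctrl_R. In the same order, 12.8%, 16.5%, 11.7%, 12.9% and 3.48% passed as lower. Of 26 tested translation factors and other genes with TOP mRNAs, 3, 0, 1, 0 and 0 rose and 6, 2, 6, 1 and 0 fell in Bub1b_R, Chek1_R, Ppm1g_R, Ppp2r1b_R and Ctrl_R, with medians between -0.07 and 0.00. The elongation factor Eef2 fell in Bub1b_R (-0.40), Chek1_R (-0.30) and Ppm1g_R (-0.32), and so did the initiation factor Eif4b (-0.40, -0.25 and -0.34). In Ctrl_R the values were -0.20 for Eef2 and -0.28 for Eif4b, which did not pass. Gnb2l1, the ribosome-bound scaffold also called Rack1, fell in Bub1b_R (-0.39) and Ppm1g_R (-0.43). Of 22 tested ribosome biogenesis genes, 2, 2, 2, 0 and 1 rose and 1, 4, 0, 11 and 0 fell, with a median of -0.23 in Ppp2r1b_R against -0.12 for the ribosomal proteins there. The Ppp2r1b_R genes that fell included Bop1, a partner of Pes1 in large-subunit assembly (-0.73, adjusted p = 1.21e-05). Pes1 itself rose by 0.87, 0.73 and 1.02 in Bub1b_R, Chek1_R and Ppm1g_R, and the nucleolar protein Ncl by 0.49, 0.29 and 0.87 there and by 0.26 in Ctrl_R.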

How the data were processed

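RNA of 30 samples (5 ESC rescue clones, +Dox or -Dox, 3 arrays each) was labelled as biotin cRNA and hybridised to an Illumina mouse whole-genome BeadChip. The authors deposited, for each array, a probe intensity (signal) and a detection p-value. The submitters' processing notes name lumi, but its role, and the normalization behind the study's own values, are not given in the sources used here. From the deposited intensity, background was corrected by a normexp fit that takes its background from the detection p-values (offset 16), followed by quantile normalization and log2. Probes detected (p under 0.05) on 3 or more of 30 arrays were tested with limma 3.58.1 (R 4.3.3) in 1 model of 10 condition means, with 20 residual degrees of freedom, and p-values were adjusted by Benjamini-Hochberg. The comparisons were -Dox against +Dox in each clone, that change minus the change in Ctrl_R, and -Dox against Ctrl_R -Dox. The number of arrays limits the precision. The fit was tested on simulated data. Fold bounds for probes not above background set the dim group, on each array, at the lowest detected signal or the probe's own signal, whichever was higher. On Ppm1g_R -Dox replicate 2, 46 detection p-values were stored as dates in the deposited text, and 28 of them were converted back. For Bub1b_R -Dox replicate 2 it was 6 of 14. The other 18 and 8 were given the detection p-value of the probe nearest in signal on that array. None of these cells was in a member row.

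The members and gene lists were chosen with earlier results of these data known, as were the gene classes. Signal levels, promoter windows, motif settings, the counts without Chek1_R and the genes named for falling in 3 or 4 clones were chosen after their values were seen. Otherwise, the text names paralogs, genes with known extra roles and, in each comparison, the passing members with the largest changes. All 63 member symbols matched RefSeq. Alternatives were other background, offset and scaling settings, other detection filters, 1.5-fold, the brightest probe of each gene, only the arrays compared, a replicate block, the methods' t-test and leaving out each array. Replicate arrays correlated at 0.990 to 0.997, and 0 array pairs held identical values.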

Additional observations from a re-analysis of the deposited data

Results flagged for a closer look

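The members below changed differently on Dox withdrawal in a phosphoregulator clone than in Ctrl_R, by the test of that difference in limma. All differences share the Ctrl_R arrays, and no cause was tested. In Bub1b_R these were Rpl22 (-0.29, adjusted p = 0.0351), Rpl22l1 (-1.0, 0.0109), the dimmer Rpl38 probe (-0.47, 0.00108) and Rpl39l (-0.95, 0.0351). In the arrays labelled Chek1_R, whose targeted gene went against the label on withdrawal, they were the dimmer Rpl38 probe (-0.29, adjusted p = 0.0267) and Rpl3l (-0.82, 0.00569). In Ppm1g_R they were Rpl22l1 (-0.86, adjusted p = 0.0283), the dimmer Rpl38 probe (-0.49, 0.000789) and the dimmer Rpl7l1 probe (0.52, 0.0305). In Ppp2r1b_R they were Rpl22l1 (-0.84, adjusted p = 0.0439), the dimmer Rpl27a probe (0.90, 0.0461), Rpl30 (-0.42, 0.0307), the dimmer Rpl38 probe (-0.40, 0.00743), the dimmer Rps19 probe (-0.53, 0.0476) and the brighter Rps27a probe (-0.43, 0.00267). The values of Rpl39l and of the dimmer Rpl27a probe have no exact size: Rpl39l was detected on 0 of 3 Bub1b_R -Dox and 0 of 3 Ctrl_R +Dox arrays, and the Rpl27a probe on 0 of 3 Ctrl_R -Dox arrays. Of the 15 differences, 4 passed under median scaling, namely Rpl22l1 in Bub1b_R and Ppm1g_R, the dimmer Rpl38 probe in Ppm1g_R and Rpl3l in Chek1_R. The dimmer Rps19 probe and the dimmer Rpl27a probe were each lost without any 1 of 9 of 12 arrays, and the dimmer Rpl7l1 probe without any 1 of 6.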

How the results depend on the processing

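Counts of members are given in the order Bub1b_R, Chek1_R, Ppm1g_R, Ppp2r1b_R and, for withdrawal, Ctrl_R. No background correction, an offset of 50, a stricter detection filter and the replicate block kept every count within 1.5 times its value; the replicate numbers do not pair samples (same-number correlations from -0.08 to 0.13, 1 of 15 over 0.1), and the block, which gave 12, 8, 14, 13 and 1 on withdrawal, ended 1 call of a named gene, Rpl22l1 in Ppp2r1b_R minus Ctrl_R. Median scaling gave withdrawal counts of 6, 3, 21, 8 and 0, with medians of -0.14, -0.15, -0.26 and -0.0815 in the first 4; counts of 1, 1, 2 and 0 for the change minus that in Ctrl_R, with medians of -0.19 in Ppm1g_R and -0.0215 in Ppp2r1b_R; and 60 and 70 for Ppm1g_R and Ppp2r1b_R against Ctrl_R, with medians of -0.62 and -0.75, and -0.19 in Chek1_R. It turned the change of Rpl22l1 in Chek1_R to 0.041. A 1.5-fold limit left 1, 1, 0 and 1 on withdrawal, 2, 1, 1 and 2 for the change minus that in Ctrl_R, and 7, 7, 13 and 15 against Ctrl_R. For the change minus that in Ctrl_R, no detection filter gave 2 in Bub1b_R and 3 in Ppp2r1b_R, and the brightest probe of each gene 1, 1 and 3 in the last 3 clones, and 16 for Chek1_R against Ctrl_R. Fitting only the arrays compared gave 5 in Ppm1g_R and 1 in Ppp2r1b_R on withdrawal, and 4 in Chek1_R and 0 in Ppp2r1b_R for the change minus that in Ctrl_R. The methods' t-test gave, at unadjusted p, 27 in Bub1b_R, 17 in Chek1_R and 5 in Ctrl_R on withdrawal and 12, 11, 9 and 13 for the change minus that in Ctrl_R; after Benjamini-Hochberg it gave 3 in Ppm1g_R, 0 in Ppp2r1b_R and 0 in Ctrl_R, and 1 for the change in Ppp2r1b_R minus that in Ctrl_R. The shares of all probes that passed under these settings are not given here, and the cause was not tested for any of these.

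Leaving out each array in turn gave 5 to 13, 5 to 9, 5 to 21, 10 to 14 and 0 to 1 on withdrawal; 2 to 4, 1 to 3, 1 to 9 and 2 to 7 for the change minus that in Ctrl_R; and 25 to 29, 22 to 24, 33 to 42 and 34 to 41 against Ctrl_R. Withdrawal counts moved most without -Dox replicate 3 of Bub1b_R (5), -Dox replicate 3 of Chek1_R (5), -Dox replicates 2 and 3 of Ppm1g_R (5 and 8), and in Ctrl_R without any +Dox array or -Dox replicate 3 (0). For the change minus that in Ctrl_R, counts moved to 2 without -Dox replicate 1 of Bub1b_R or -Dox replicate 3 of Ctrl_R in Bub1b_R; to 1 without +Dox replicate 2 or -Dox replicate 3 of Chek1_R or +Dox replicate 2 of Ctrl_R in Chek1_R; to 1 without +Dox replicate 1 of Ppm1g_R or +Dox replicate 2 or -Dox replicate 3 of Ctrl_R and to 9 without -Dox replicate 1 of Ppm1g_R in Ppm1g_R; and to 2 or 3 without -Dox replicate 1 of Ppp2r1b_R or 1 of 4 Ctrl_R arrays in Ppp2r1b_R. Medians on withdrawal ran from -0.09 to -0.05, -0.08 to -0.06, -0.02 to 0.04, -0.13 to -0.0811 (Ppp2r1b_R, without +Dox replicate 3) and -0.03 to -0.01. Some changes that did not pass turned sign without 1 array: Rpl22l1 ran from -0.23 to 0.0152 in Chek1_R and from -0.38 to 0.009 in Ppp2r1b_R, Rpl22 from -0.0933 to 0.0032 in Ppp2r1b_R, and Rpl39l from -0.0069 to 0.40 in Chek1_R, -0.32 to 0.0703 in Ppm1g_R and -0.12 to 0.097 in Ppp2r1b_R. Dim members, near the detection limit, had a replicate SD of 0.19 against 0.10 for bright ones.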

Other observations

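The mitochondrial ribosome has proteins of its own, encoded by nuclear genes. Of 68 tested genes for these proteins, 1, 6, 6, 0 and 1 rose and 15, 3, 10, 22 and 1 fell on withdrawal in Bub1b_R, the arrays labelled Chek1_R, Ppm1g_R, Ppp2r1b_R and Ctrl_R. Of all probes, 11.6%, 14.5%, 11.6%, 12.4% and 4.07% passed as higher and 12.8%, 16.5%, 11.7%, 12.9% and 3.48% as lower. The medians of the listed genes were -0.06, 0.03, -0.03, -0.15 and -0.01. Without Dox, 7 were higher and 45 lower in Ppp2r1b_R than in Ctrl_R, where 29.5% and 35.9% of all probes passed. The median was -0.31, and the comparison crosses the array sets.

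Among 12 tested regulators of ribosome production in the Myc and TOR pathways, 1, 1, 0, 1 and 1 rose and 2, 3, 1, 0 and 0 fell in the same order of clones. The shares of all probes are those given for the mitochondrial list on withdrawal. Myc, a transcription factor that drives ribosomal genes, rose in Bub1b_R by 0.82 (adjusted p = 0.000635) and did not pass in the other clones. Tsc1, an inhibitor of TOR, moved both ways: it was lower in Bub1b_R (-0.23, adjusted p = 0.0476) and Ppm1g_R (-0.51, 8.42e-05) and higher in Ppp2r1b_R (0.62, 8.37e-06) and Ctrl_R (0.34, 0.0136).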
